A study of Mus musculus with 20 samples.

Results

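The genes described here are 8 mouse genes that act around the transcription factor STAT5 and in proximal tubule identity: Stat5a, Stat5b, Bcl6, Cux2, Socs2, Cish, Hnf4a and Hnf4g. They were chosen by name, as the STAT5 and BCL6 genes, their feedback targets and the HNF4 factors, and all 8 of 8 were found among the 24762 genes counted. Whole-kidney poly(A) RNA was sequenced in 20 libraries from C57BL/6J mice, in 4 groups of 5. The groups were ARLmon/Y kidneys with testosterone, ARLmon/Y kidneys with vehicle, wild type kidneys with testosterone and wild type kidneys with vehicle. All 4 groups, controls included, were orchidectomised and then replaced with testosterone or vehicle for 4 days, so no group has its own testicular androgen. ARLmon is an androgen receptor allele with a changed ligand-binding domain that impairs pairing of receptor monomers through this domain, carried on the single X chromosome of these males. It is a germline allele, so the receptor was changed in every tissue, the pituitary and liver included, and not in the kidney alone. The ages of the mice were not given in the sources used here. No label ties a library to its own animal, so every p-value below measures only the spread between these samples.

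STAT5A and STAT5B are cytoplasmic factors that the kinase JAK2 phosphorylates at occupied growth hormone, prolactin and related cytokine receptors, after which they pair, enter the nucleus and bind DNA at a palindrome. Cish and Socs2 are among their best known target genes, and the proteins they encode bind the receptors and dampen the signal, which makes their RNA a common readout of STAT5 activity. BCL6 is a zinc finger repressor whose DNA motif overlaps that of STAT5. In mouse liver BCL6 is higher in males and the repressor CUX2 is higher in females, and both take part in the sex difference set by growth hormone and STAT5. HNF4A is a nuclear receptor that drives proximal tubule differentiation in mouse kidney, and HNF4G is its close paralog.

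The promoter sequences are shown because Cish and Bcl6, which moved in opposite directions with testosterone in wild type kidneys, are the members whose promoter windows hold the STAT5 motif. Windows from 250 bases before to 50 after a RefSeq start site (GRCm38.p6, each written 5′ to 3′ on the strand of its gene) were available for 6 of the 8 genes, 11 windows in all. No window was available for Socs2 or Hnf4g, so neither gene was searched. The STAT5 palindrome TTCNNNGAA, searched on both strands, was found in 3 of the 11 windows, belonging to 2 genes. The first line is the Cish window at chr9:107296409-107296708 on the plus strand. The next is the Bcl6 window at the upstream start, chr16:23988803-23989102 on the minus strand, and the last is the Bcl6 window at a start inside the gene, chr16:23981234-23981533 on the minus strand. Capitals mark each STAT5 match.
Cish: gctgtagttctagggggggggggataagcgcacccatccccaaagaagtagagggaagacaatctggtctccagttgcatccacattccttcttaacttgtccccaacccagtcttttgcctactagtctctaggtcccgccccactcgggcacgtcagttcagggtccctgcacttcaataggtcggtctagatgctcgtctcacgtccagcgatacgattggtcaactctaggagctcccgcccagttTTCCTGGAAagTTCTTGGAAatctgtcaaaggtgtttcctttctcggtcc
Bcl6, upstream start: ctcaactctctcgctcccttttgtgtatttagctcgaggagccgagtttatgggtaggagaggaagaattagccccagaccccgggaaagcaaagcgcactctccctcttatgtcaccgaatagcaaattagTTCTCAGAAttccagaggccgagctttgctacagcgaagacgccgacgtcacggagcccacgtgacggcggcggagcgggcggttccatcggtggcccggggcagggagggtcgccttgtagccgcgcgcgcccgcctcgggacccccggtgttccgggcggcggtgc
Bcl6, internal start: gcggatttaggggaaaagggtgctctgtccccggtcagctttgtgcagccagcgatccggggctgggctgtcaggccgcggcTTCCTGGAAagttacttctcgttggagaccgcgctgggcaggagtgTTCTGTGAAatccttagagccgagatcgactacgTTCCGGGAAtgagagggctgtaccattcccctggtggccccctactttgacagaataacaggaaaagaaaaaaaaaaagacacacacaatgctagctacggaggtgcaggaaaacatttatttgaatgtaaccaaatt

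The Cish window holds 2 matches, TTCCTGGAA beginning at the start site itself and TTCTTGGAA beginning 11 bases after it. The upstream Bcl6 window holds 1, TTCTCAGAA, and the internal Bcl6 window holds 3, TTCCTGGAA, TTCTGTGAA and TTCCGGGAA. Among 32851 promoter windows of the same length, 8.3% held at least 1 match, 0.457% at least 2 and 0.0335% at least 3. The BCL6 motif TTCCTNGAA, which is by its letters also a STAT5 match, occurred in 1.59% of all windows. Its matches here were the TTCCTGGAA of the Cish window and the TTCCTGGAA of the internal Bcl6 window. The HNF4 motif CAAAGNCCA (1.98% of all windows) and a full palindromic androgen response element (0.00913%) had no match in the 11 windows. A match is a string of letters, not a measured binding site.

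Reads assigned to genes numbered 10236738 to 18609328 per library in the ARLmon testosterone group, 11569255 to 16881304 in the ARLmon vehicle group, 8342000 to 15422018 in the wild type testosterone group and 8618311 to 38101526 in the wild type vehicle group. Levels are given as CPM, the read counts relative to the TMM-scaled library size, and differences are log2 changes from edgeR's quasi-likelihood fit over all 20 libraries. A gene was called at a Benjamini-Hochberg adjusted p below 0.05 over 15549 tested genes, among them all 8 members. ARLmon vehicle library GC078618 and wild type vehicle library GC078604 lay farthest along the main axis of variation within groups, which held 30.4% of that variance. Defining proximal tubule markers such as Lrp2 and Slc34a1 were detected in every library, as were all 18 markers of that list. When libraries were scaled by total alone, the median over all genes of the log2 change between testosterone and vehicle in wild type kidneys moved to -0.18 against -0.03, and that between the genotypes under testosterone to 0.28 against 0.04. The split of called genes moved with it, to 897 higher and 2687 lower against 1455 higher and 989 lower in wild type, and to 5690 higher and 1213 lower against 2431 higher and 2411 lower between the genotypes under testosterone.

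**Figure D1:**
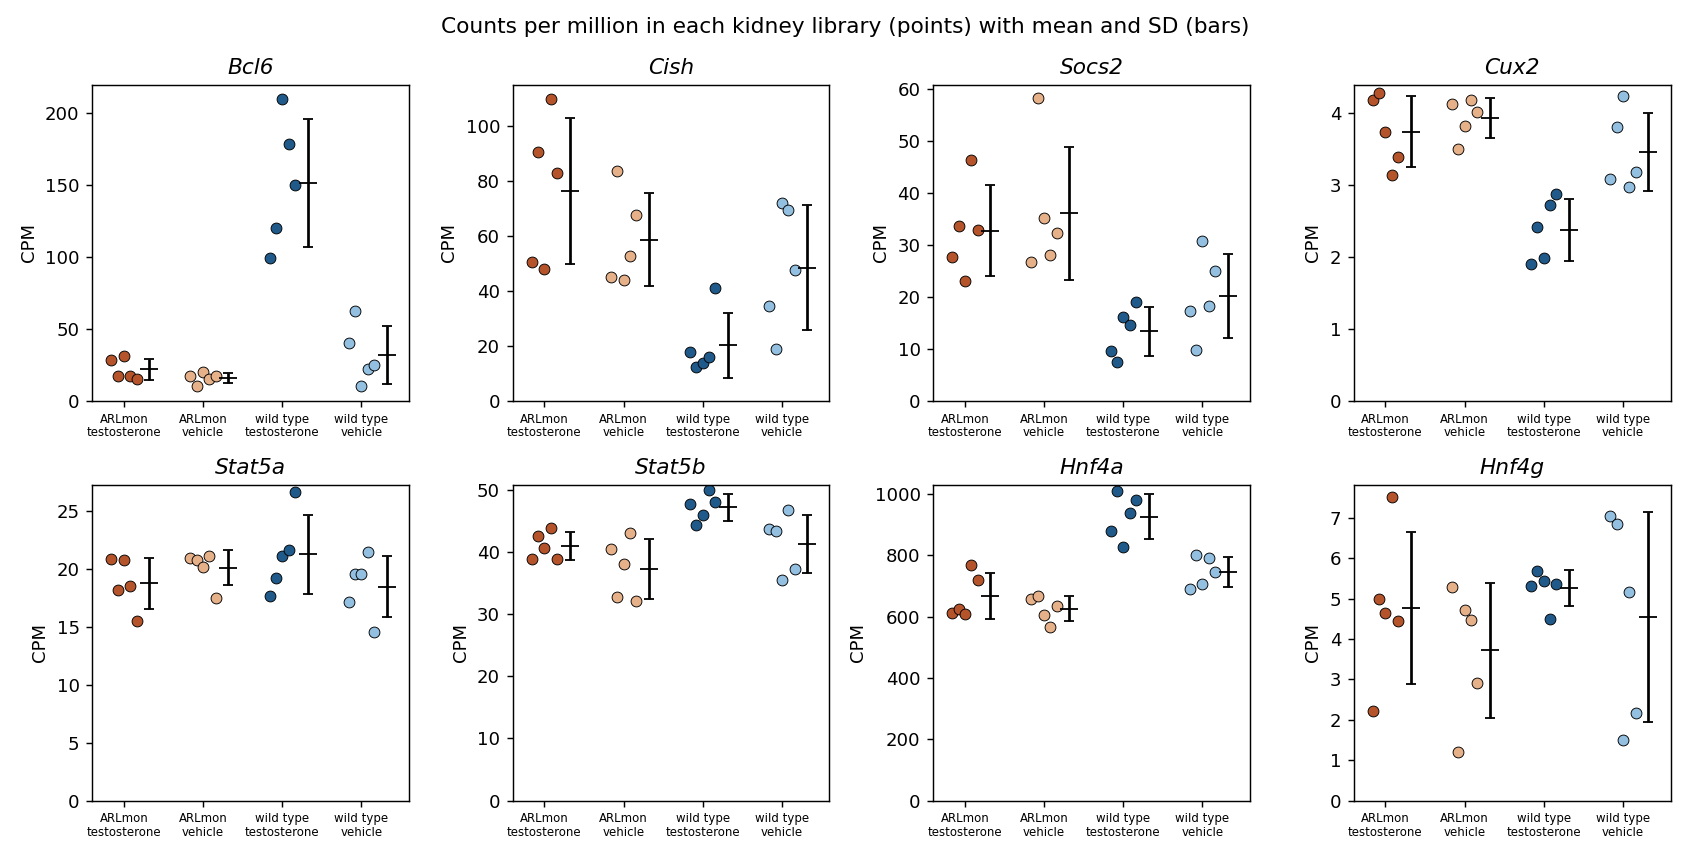
Level of each of the 8 genes (CPM, linear axis from 0) in the 5 libraries of each group (points), with the mean and SD (bars). The wild type testosterone libraries stand highest for Bcl6, from 98.9 to 209 CPM against 10.2 to 62.5 in wild type vehicle. They do not overlap either ARLmon group for Bcl6, Cish, Socs2, Cux2 and Hnf4a. The gap is narrow for Cish (41.1 CPM against 44.1 in ARLmon vehicle) and Cux2 (2.87 against 3.14 in ARLmon testosterone). The share of all tested genes separated in this way was not counted, and 31.1% were called between the genotypes under testosterone.

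The 8 genes differed widely in level. Exon length was taken over all annotated transcripts of a gene together. For Cish it came to 6419 bases, most of the gene (chr9:107296026-107302784). Levels per kilobase and ranks between genes are therefore approximate. Per kilobase of exon, Hnf4a was the most abundant in every group, with a mean of 138 CPM per kb in ARLmon testosterone, 129.7 in ARLmon vehicle, 192 in wild type testosterone and 155 in wild type vehicle. Cux2 was the least abundant, with a mean between 0.236 and 0.390 CPM per kb. Stat5b, at 6.72 to 8.51 CPM per kb, exceeded Stat5a, at 2.59 to 2.98, in every group mean. The rank of Bcl6 among the 8 genes moved most between groups. It ranked 5 in ARLmon testosterone kidneys with 3.26 CPM per kb and 6 in ARLmon vehicle kidneys with 2.39. In wild type it ranked 2 with testosterone, at 22.6 CPM per kb, and 4 with vehicle, at 4.77.

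In wild type kidneys the RNA of the repressor Bcl6 and of the tubule factor Hnf4a rose with testosterone, and that of the STAT5 feedback gene Cish and of Cux2 fell. Of all tested genes 15.7% were called in this comparison, 9.36% higher and 6.36% lower. Of the 8 members 4 were called, 2 higher and 2 lower. The RNA of neither STAT5 gene passed the test.

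Bcl6 (chr16:23965052-23988852, GRCm38, minus strand) had 98.9, 119.8, 209, 178 and 149.7 CPM in the wild type testosterone libraries, against 40.2, 62.5, 10.2, 22.1 and 24.8 in the wild type vehicle libraries. The groups did not overlap, and the vehicle libraries were themselves spread from 10.2 to 62.5. Bcl6 rose by 2.24 ± 0.34 on the log2 scale (SE here and throughout; 4.74-fold; 95% interval 1.53 to 2.96; edgeR adjusted p = 7.16e-05). The call held without any single library, with a change between 2.01 and 2.65. A predicted gene, Gm37419, lies over 114 bases of Bcl6 on the opposite strand, and whether the counting used strand was not given in the sources used here.

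Cish (chr9:107296026-107302784, plus strand), which encodes a receptor-bound inhibitor of STAT5 signalling, had 17.7, 12.3, 13.9, 15.8 and 41.1 CPM with testosterone in wild type, against 34.6, 18.95, 71.7, 69.5 and 47.4 with vehicle. Library GC078611, at 41.1, lay inside the vehicle range, and the other testosterone libraries lay below every vehicle library. Cish fell by 1.26 on the log2 scale (SE 0.36, adjusted p = 0.0185). This call rests on few libraries. It was lost without wild type vehicle library GC078604 (log2 -1.07, adjusted p = 0.0522), or without wild type testosterone library GC078608 (-1.13, 0.0506), GC078609 (-1.15, 0.0509) or GC078610 (-1.18, 0.0565). Without GC078611 the change was -1.70.

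Socs2 (chr10:95385362-95417180, minus strand), the other STAT5 feedback gene, had 9.51, 7.50, 16.2, 14.6 and 19.01 CPM with testosterone in wild type, against 17.2, 9.76, 30.8, 18.2 and 25.05 with vehicle. The groups overlapped, and the log2 change of -0.58 ± 0.29 (95% interval -1.19 to 0.03) did not pass the test (edgeR adjusted p = 0.193). The estimate has the sign of that of Cish.

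Cux2 (chr5:121856366-122050102, minus strand) encodes a homeodomain repressor that in mouse liver is female-biased. In wild type it had 1.90, 2.42, 1.99, 2.73 and 2.87 CPM with testosterone, against 3.09, 3.81, 4.24, 2.98 and 3.19 with vehicle. The groups did not overlap, although these are low values that rest on 14 to 37 reads per testosterone library. Cux2 fell by 0.52 on the log2 scale (SE 0.16, adjusted p = 0.0296). The call was lost with DESeq2 (-0.51, adjusted p = 0.0545) and limma-voom (-0.49, 0.0589), without the filter on low counts (-0.54, 0.0534) and with the wild type groups fitted alone (-0.54, 0.083). It was kept with libraries scaled by total alone (-0.67, 0.00592) and on the deposited log2 values (-0.61, 0.0025). It was also lost without GC078603 (0.0663), GC078604 (0.0871), GC078607 (0.081), GC078608 (0.0503) or GC078609 (0.0759).

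The genes of the STAT5 proteins themselves showed small differences. Stat5b (chr11:100780731-100850724, minus strand) had 44.3 to 49.9 CPM (median 47.7) with testosterone in wild type, against 35.5 to 46.7 (median 43.3) with vehicle, a log2 change of 0.19 ± 0.09 (95% interval 0.00 to 0.38, edgeR adjusted p = 0.181). Stat5a (chr11:100859351-100885169, plus strand), its neighbour on chromosome 11, had 17.7 to 26.6 CPM (median 21.1) with testosterone, against 14.6 to 21.4 (median 19.5) with vehicle, a log2 change of 0.20 ± 0.12 (-0.05 to 0.45, adjusted p = 0.285). The groups overlapped for both genes. The intervals leave out a change of either gene as large as that of Bcl6. Stat5a and Stat5b are near-identical over long stretches, and how reads that fit both were counted was not given in the sources used here, so their split is uncertain. RNA levels say nothing of STAT5 phosphorylation.

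Hnf4a (chr2:163506808-163572910, plus strand) had 881, 1008.7, 826, 938 and 980.3 CPM with testosterone in wild type, against 691, 800.4, 706, 792 and 746 with vehicle. Every testosterone library lay above every vehicle library. Hnf4a rose by 0.31 ± 0.09 on the log2 scale (1.24-fold, adjusted p = 0.0185). The rise depended on the scaling: with libraries scaled by total alone, where all genes had a median of -0.18, it was 0.16 (adjusted p = 0.171), and on the deposited log2 values it was 0.17 (0.159). It also missed the threshold without the filter (0.0685) and with the wild type groups fitted alone (0.064). The antisense gene Hnf4aos lies over Hnf4a, and its counts were 1.37% to 2.8% of those of Hnf4a in the ARLmon libraries and 0.875% to 3.01% in the wild type libraries. Hnf4g (chr3:3508030-3658052, plus strand) had 4.50 to 5.68 CPM with testosterone, against 1.51 to 7.05 with vehicle, and its log2 change of 0.18 ± 0.38 (-0.61 to 0.98) did not pass the test (adjusted p = 0.8).

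**Figure D2:**
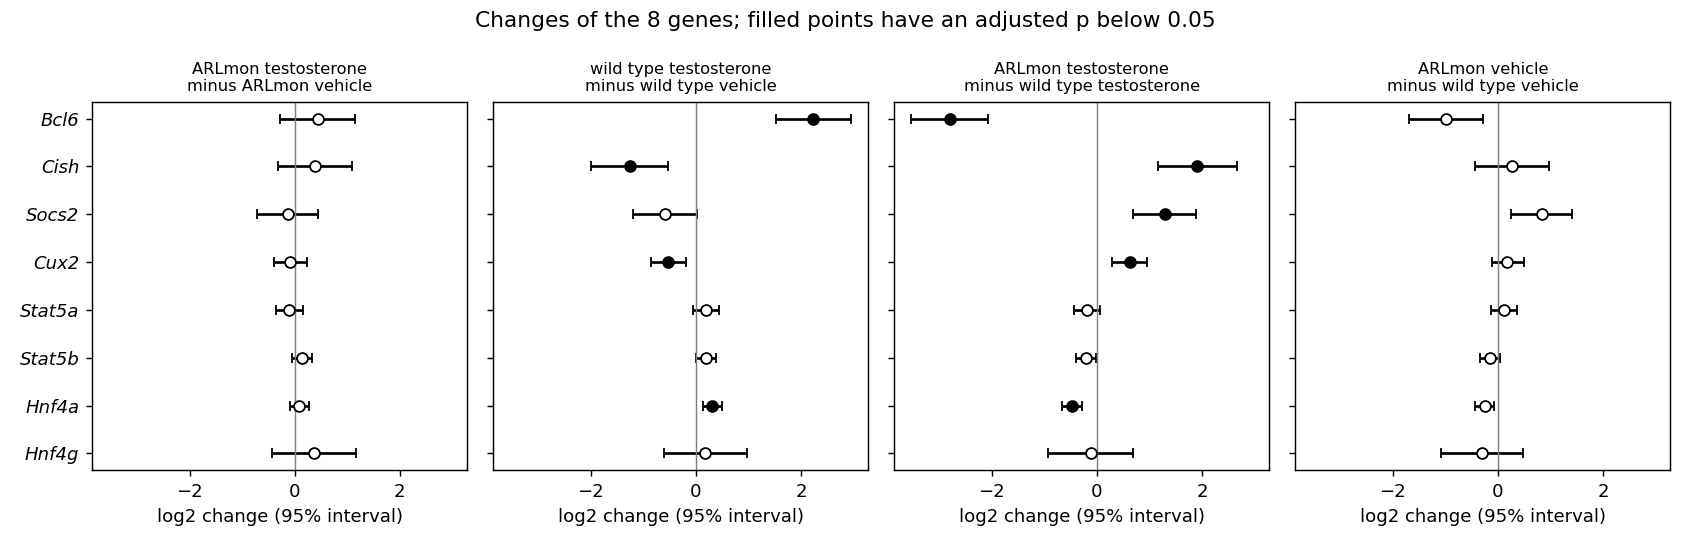
Log2 change of each of the 8 genes in 4 comparisons (points) with 95% intervals (bars), filled where the adjusted p is below 0.05. In ARLmon kidneys every interval spans 0. With testosterone in wild type 4 of 8 genes were called, against 15.7% of all tested genes. Between the genotypes under testosterone 5 of 8 were called, against 31.1% of all tested genes.

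In ARLmon kidneys none of the 8 genes was called with testosterone. Of all tested genes 0% were called by edgeR, DESeq2 or limma-voom, with 813 genes at an unadjusted edgeR p below 0.05, and none of the members was among the 813. Bcl6 had 28.6, 17.05, 30.8, 17.4 and 15.2 CPM with testosterone, against 17.1, 10.4, 20.1, 15.1 and 17.4 with vehicle. The groups overlapped, and the log2 change was 0.44 (95% interval -0.28 to 1.15, edgeR adjusted p = 0.774). Cish had 50.4, 90.3, 47.7, 109.7 and 82.7 CPM with testosterone, against 44.9, 83.6, 44.1, 52.7 and 67.4 with vehicle (0.38, interval -0.32 to 1.09). The upper end of the Bcl6 interval lies below the lower end of the wild type interval, and the lower end of the Cish interval lies above the upper end of the wild type one. Hnf4a had 612, 627, 609, 770.3 and 721 CPM with testosterone in ARLmon, against 657, 668, 605, 565 and 636 with vehicle. Cux2 ranged from 3.14 to 4.28 CPM with testosterone, against 3.51 to 4.19 with vehicle. Stat5a ranged from 15.5 to 20.8 CPM with testosterone, against 17.5 to 21.1 with vehicle, and Stat5b from 38.8 to 43.8 CPM with testosterone, against 32.1 to 42.99 with vehicle. The groups overlapped for each of these 4 genes. The log2 estimate was 0.09 for Hnf4a (-0.09 to 0.28), for Cux2 -0.08 (-0.39 to 0.23), for Stat5a -0.10 (-0.35 to 0.15) and for Stat5b 0.14 (-0.06 to 0.33). The intervals were wider for Socs2, with -0.13 (-0.71 to 0.44), and for Hnf4g, with 0.37 (-0.43 to 1.16).

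The difference of the testosterone effects between the genotypes was tested directly. Of all tested genes 4.77% were called, 1.42% with a higher and 3.34% with a lower effect in ARLmon, and among the 8 members only Bcl6 was, with a difference of -1.81 ± 0.48 (log2, ARLmon minus wild type, adjusted p = 0.029). That call was lost without GC078605 (-1.70, adjusted p = 0.0558), GC078606 (-1.74, 0.0525), GC078609 (-1.66, 0.0614), GC078610 (-1.74, 0.0598), GC078613 (-1.73, 0.0616), GC078616 (-1.70, 0.0584), GC078617 (-1.78, 0.0501) or GC078619 (-1.71, 0.0626). For Cish the difference was 1.64 ± 0.49 (95% interval 0.62 to 2.67) and fell just short of the threshold (adjusted p = 0.0599). It passed with DESeq2 (0.0445), with libraries scaled by total alone (1.81, 0.0288) and on the deposited log2 values (1.77, 0.0467). It also passed without GC078603 (1.85, 0.0201), GC078611 (2.08, 0.00746), GC078612 (1.76, 0.0499), GC078614 (1.77, 0.05 after rounding) or GC078618 (1.80, 0.0415). The differences for Cux2 (0.45, -0.01 to 0.90), Socs2 (0.45, -0.39 to 1.28), Hnf4a (-0.22, -0.48 to 0.04), Stat5a (-0.30, -0.65 to 0.05), Stat5b (-0.05, -0.33 to 0.22) and Hnf4g (0.18, -0.94 to 1.31) did not pass.

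Under testosterone the genotypes differed in 5 of the 8 genes, and 31.1% of all tested genes were called, 15.6% higher and 15.5% lower in ARLmon. Bcl6 was lower in ARLmon kidneys, at 21.8 ± 7.30 CPM against 151 ± 44.3 in wild type (log2 -2.80 ± 0.35, adjusted p = 3.11e-06). Cish was higher, at 76.2 ± 26.6 CPM against 20.2 ± 11.9 (1.91 ± 0.36, adjusted p = 0.000369). Socs2 was higher too, at 32.7 ± 8.78 CPM against 13.4 ± 4.76 (1.29 ± 0.29, adjusted p = 0.00206). Its libraries held 27.7, 33.7, 23.0, 46.4 and 32.8 CPM in ARLmon testosterone, all above the highest wild type testosterone library at 19.01. Cux2 was higher, at 3.75 ± 0.489 CPM against 2.38 ± 0.432 (0.63 ± 0.16, adjusted p = 0.0052), and Hnf4a was lower, at 668 ± 73.6 CPM against 927 ± 74.0 (-0.47 ± 0.09, adjusted p = 0.000321; SD of CPM, n = 5 each). For each of these 5 genes no library of one group entered the range of the other. The share of all tested genes separated in this way was not counted, so this only describes the 5 called genes. The 5 calls were kept under every alternative scaling, filter and test run and without any single library. The Hnf4a difference was smaller with libraries scaled by total alone (-0.23, adjusted p = 0.0308), where all genes had a median of 0.28, and on the deposited log2 values (-0.24, 0.0237). Stat5b (-0.20, interval -0.40 to -0.01, edgeR adjusted p = 0.102), Stat5a (-0.19, -0.44 to 0.06) and Hnf4g (-0.12, -0.92 to 0.68) were not called. This comparison shares its wild type testosterone libraries with the testosterone effect in wild type.

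Without testosterone the genotypes differed less. Of all tested genes 4.37% were called between ARLmon and wild type vehicle kidneys (1.99% higher, 2.38% lower), and none of the 8 members was, although Bcl6, Socs2 and Hnf4a had an unadjusted p below 0.05. Bcl6 averaged 16.03 ± 3.59 CPM in ARLmon vehicle, against 31.97 ± 20.1 in wild type vehicle (log2 -0.99 ± 0.34, edgeR adjusted p = 0.112). Socs2 had 26.6, 58.2, 35.1, 28.1 and 32.3 CPM in ARLmon vehicle, against the 9.76 to 30.8 given above for wild type vehicle (0.84 ± 0.28, adjusted p = 0.1). Hnf4a averaged 626 ± 41.9 CPM in ARLmon vehicle, against 747 ± 49.0 in wild type vehicle (-0.25 ± 0.09, adjusted p = 0.113). DESeq2 called Bcl6 (adjusted p = 0.0403) and Hnf4a (-0.26, 0.0332), and limma-voom called none. Without wild type vehicle library GC078604, Bcl6 (-1.22, edgeR adjusted p = 0.0127) and Socs2 (1.05, 0.026) were called. Cish (0.27, interval -0.44 to 0.98), Cux2 (0.18, -0.12 to 0.49), Stat5a (0.11), Stat5b (-0.15) and Hnf4g (-0.30) were not called in any of these. Between ARLmon testosterone and wild type vehicle kidneys, edgeR called 3.03% of all tested genes (1.25% higher, 1.78% lower). None of the members was called there by edgeR, DESeq2 or limma-voom. Socs2 alone had an unadjusted edgeR p below 0.05 (0.70, interval 0.12 to 1.28, edgeR adjusted p = 0.216).

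Over the 20 libraries Bcl6 was high where Cish and Socs2 were low, but not within every group. Within the wild type vehicle group, GC078603 had the highest Bcl6 (62.5 CPM) and the lowest Cish (18.95) and Socs2 (9.76), and GC078604 had the lowest Bcl6 (10.2) and the highest Cish (71.7) and Socs2 (30.8). Within the ARLmon vehicle group, GC078618 had the lowest Bcl6 (10.4) and the highest Cish (83.6) and Socs2 (58.2). GC078619 of that group had the highest Bcl6 (20.1) and the lowest Cish (44.1), but its Socs2 (35.1) was next to highest. Within the ARLmon testosterone group, GC078612 and GC078614 had the highest Bcl6 (28.6 and 30.8), the lowest Socs2 (27.7 and 23.0) and the lowest Cish (50.4 and 47.7). The wild type testosterone group did not follow this order: GC078611, with a Bcl6 of 149.7 CPM in the middle of its group, had the highest Cish (41.1) and Socs2 (19.01). There GC078607 and GC078608, with the lowest Bcl6 (98.9 and 119.8), also had the lowest Socs2 (9.51 and 7.50), the opposite order. Over the 20 libraries the Pearson correlation of log2 CPM was -0.87 between Bcl6 and Cish, -0.79 between Bcl6 and Socs2 and 0.87 between Cish and Socs2. With the group means removed it was -0.70, -0.51 and 0.77. The libraries share their groups, and GC078604 and GC078618 are those that stand farthest out, so these values are descriptions of 20 libraries. For Cux2 and Hnf4a the correlation with Bcl6 was -0.77 and 0.77 over the 20 libraries, and 0.04 and -0.16 with the group means removed.

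**Figure D3:**
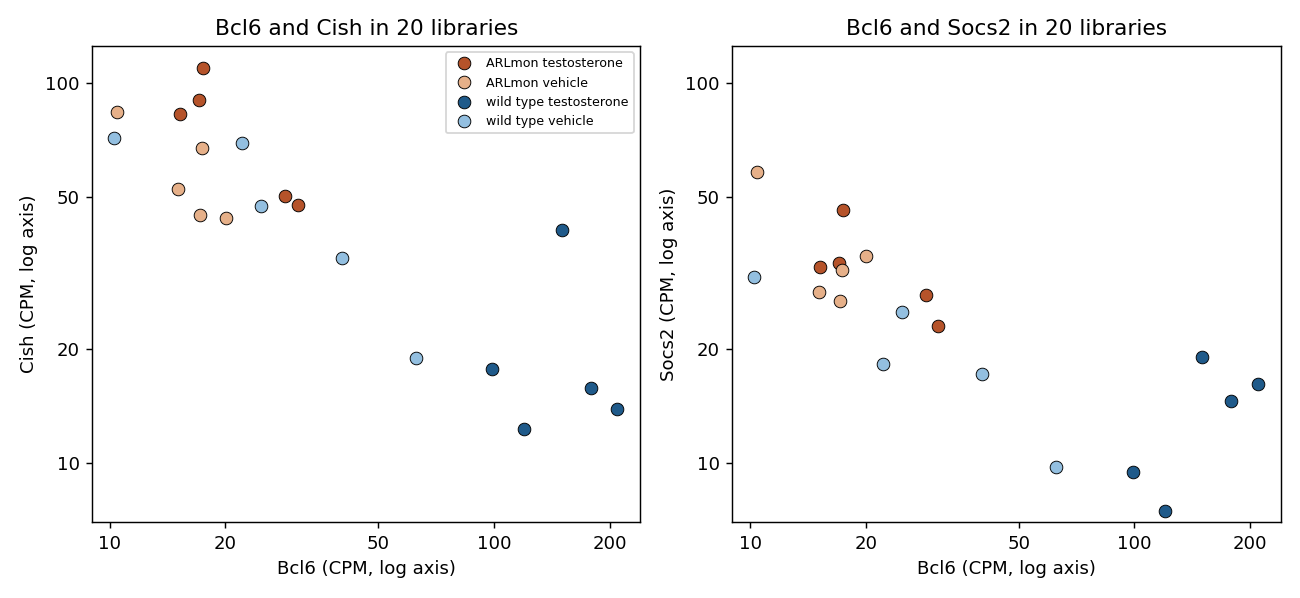
Bcl6 against Cish (left) and Socs2 (right) in CPM on log axes, 1 point per library, coloured by group. Cish and Socs2 were lower where Bcl6 was higher, with a correlation of -0.87 and -0.79 over 20 libraries. This order did not hold within the wild type testosterone group, where the library with a Cish of 41.1 CPM stands apart.

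Hnf4g and Stat5b followed the main axis of variation within groups instead. The libraries farthest out on it held the lowest Hnf4g of their groups, 1.20 CPM in GC078618 (ARLmon vehicle; the others 2.91 to 5.30) and 1.51 in GC078604 (wild type vehicle; the others 2.16 to 7.05). In the ARLmon testosterone group the library farthest out, GC078612, held 2.22 CPM of Hnf4g, against 4.44 to 7.50 in the others. Stat5b in GC078604 was 35.5 CPM, the lowest of wild type vehicle, and in GC078618 it was 32.8, next to lowest in ARLmon vehicle. With group means removed, the correlation with this axis over 20 libraries was -0.94 for Hnf4g and -0.90 for Stat5b, -0.46 for Bcl6 and 0.36 for Socs2, and within 0.2 of 0 for Cish, Cux2, Stat5a and Hnf4a. The axis was built from all genes, these included. Its part in the results was not tested. The call of Bcl6 in wild type and the 5 calls between the genotypes under testosterone were kept without GC078604 and GC078618. Without that pair Bcl6 was also called between the genotypes with vehicle (-1.11, adjusted p = 0.0342), Socs2 between ARLmon testosterone and wild type vehicle (0.92, 0.047), and Cux2 was no longer called in wild type (-0.43, 0.0836).

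The genes most like each member in pattern were sought over the 20 libraries, as the 3 highest Pearson correlations of log2 CPM among named genes averaging 5 CPM or more. For Bcl6 they were Zcchc9 (0.938), Tmem87a (0.931) and Fbxo8 (0.927). For Cish they were Lynx1 (0.904), Sh2d4a (0.879) and Hk1 (0.876), for Socs2 Gpc1 (0.883), Apbb1 (0.881) and Cd59a (0.872), and for Cux2 Igfbp7 (0.882), Chst8 (0.882) and Grik5 (0.876). Hnf4a was most like Uap1 (0.963), Usp10 (0.954) and Sec24c (0.953). Hnf4g was most like Shprh (0.968), Cep350 (0.964) and Zfp871 (0.964), and Stat5b most like Tlk1 (0.969), Clmn (0.958) and Rap2c (0.957). No such close companion was found for Stat5a, whose highest values were 0.684 (Rbm47), 0.677 (Nedd4l) and 0.663 (Ccdc55). With the group means removed, the correlations with these companions were 0.49 to 0.61 for Bcl6, 0.56 to 0.6 for Cux2, 0.67 to 0.71 for Socs2 and 0.63 to 0.84 for Cish. They were 0.75 to 0.91 for Hnf4a, 0.96 to 0.97 for Hnf4g, 0.93 to 0.95 for Stat5b and 0.59 to 0.66 for Stat5a.

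The pathway around STAT5 was read from lists of other genes. With testosterone in wild type 15.7% of all tested genes were called, 9.36% higher and 6.36% lower. Between the genotypes under testosterone 31.1% were called, 15.6% higher and 15.5% lower. The list counts here and below stand beside these shares. Of 15 tested receptors and kinases that activate STAT5, 2 rose and 1 fell with testosterone in wild type (median log2 change -0.18, against -0.03 for all genes). The prolactin receptor gene Prlr fell by 3.89 on the log2 scale (SE 0.31, adjusted p = 9.15e-09), with 5.23 ± 1.13 CPM against 77.7 ± 37.1. The growth hormone receptor gene Ghr rose by 0.85 ± 0.20 (adjusted p = 0.00595), with 1010.1 ± 117 CPM against 560 ± 149. The interleukin receptor gene Il5ra rose by 2.73 ± 0.32 (adjusted p = 2.92e-06), although it averaged only 3.91 CPM with testosterone. Jak2, the kinase of these receptors, was at 0.09 ± 0.15 (adjusted p = 0.747), and Jak3 at -0.40 ± 0.14 (adjusted p = 0.0536).

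Of the 4 other STAT genes tested, none was called with testosterone in wild type by edgeR (among them Stat2 -0.30, Stat3 -0.14 and Stat6 0.00). Stat2, which carries interferon signals, was higher in ARLmon than in wild type with vehicle (0.58, adjusted p = 0.0166) and with testosterone (0.53, adjusted p = 0.0075). Of 15 other inhibitors of JAK-STAT signalling, 2 rose in wild type, the phosphatase gene Ptpn1 (0.35 ± 0.09, adjusted p = 0.0135) and Socs7 (0.36 ± 0.12, adjusted p = 0.0438), and none fell (median 0.12). Socs1 (-1.09 ± 0.60, adjusted p = 0.235) and Socs3 (-0.66 ± 0.50, adjusted p = 0.414) did not pass. Of 13 other tested STAT5 targets, 2 fell and none rose (median -0.22), a share close to that of all tested genes called (15.7%). Igfals, which encodes the acid-labile subunit that carries IGF1 in serum, fell by 1.13 on the log2 scale (SE 0.20, adjusted p = 0.000275), with 10.1 ± 2.57 CPM against 22.3 ± 5.36. The survival gene Mcl1 fell by 0.28 (SE 0.08, adjusted p = 0.014). Ccnd1 (-0.41 ± 0.15, adjusted p = 0.0672), Pim2 (-0.34) and Igf1 (0.11 ± 0.18) did not pass. Between the genotypes under testosterone 15.6% of all tested genes were called higher in ARLmon. Of the 13 targets 4 were higher there and none lower: Igfals (1.49 ± 0.20), Mcl1 (0.28), Ccnd3 (0.41) and Igf1 (0.49).

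**Figure D4:**
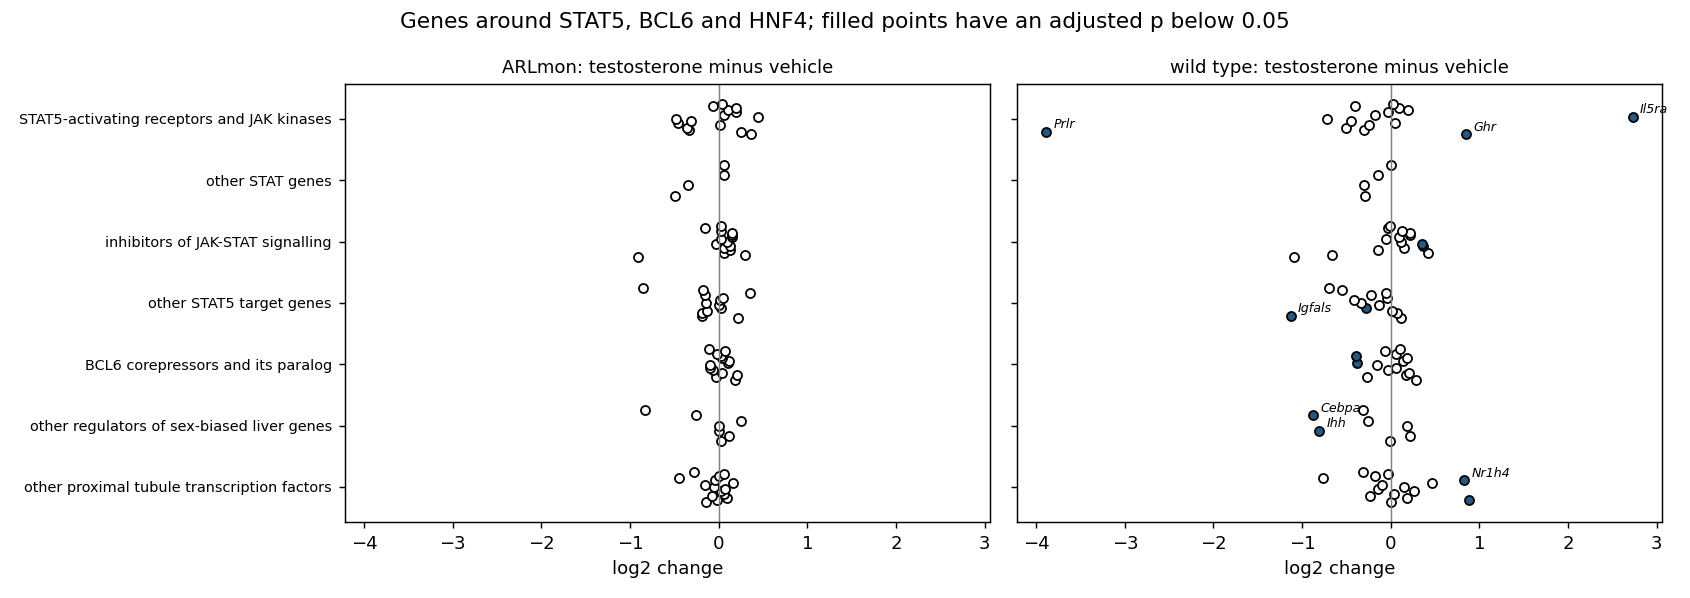
Log2 change with testosterone of the tested genes of 7 lists in ARLmon (left) and wild type (right) kidneys, 1 point per gene, filled where the adjusted p is below 0.05 with the names of 7 called genes given in the text. No gene of these lists was called in ARLmon, and in wild type Prlr at -3.89 and Il5ra at 2.73 lie farthest out.

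The corepressors that BCL6 recruits were read as a list of 14 tested genes, which includes its paralog Bcl6b. Of these, 2 fell and none rose in wild type with testosterone (median 0.06), where 15.7% of all tested genes were called. They were the deacetylase gene Hdac7 (-0.38 ± 0.12, adjusted p = 0.036) and Gps2 (-0.39 ± 0.12, adjusted p = 0.0386). Ncor1 (0.28 ± 0.17) and Bcor (0.17 ± 0.14) did not pass. Between the genotypes under testosterone 2 of the 14 were higher in ARLmon, Hdac7 (0.57 ± 0.12) and Gps2 (0.35 ± 0.13), and 1 was lower, Ncor1 (-0.46 ± 0.17, adjusted p = 0.0404; median 0.02, against 0.04 for all genes). Of 7 tested regulators of sex-biased genes in mouse liver other than Bcl6 and Cux2, 2 fell (median -0.26). Cebpa, a basic leucine zipper factor, fell by 0.88 (SE 0.16, adjusted p = 0.000603), with 18.8 ± 4.53 CPM against 34.3 ± 7.48, and the hedgehog ligand gene Ihh fell by 0.81 (SE 0.21, adjusted p = 0.00888). Cux1, the paralog of Cux2, was at 0.18 ± 0.08 (adjusted p = 0.131) in wild type.

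Among 15 other proximal tubule transcription factors, 2 rose with testosterone in wild type and none fell (median 0.00). Of all tested genes 15.7% were called there. The bile acid receptor gene Nr1h4 rose by 0.83 ± 0.13 (adjusted p = 6.09e-05), with 192 ± 38.1 CPM against 108 ± 6.998. This rise exceeded that of Hnf4a in estimate. The testosterone effect on Nr1h4 differed between the genotypes, by -0.87 ± 0.18 (adjusted p = 0.00409). Under testosterone Rxra, the gene of a nuclear receptor partner, was lower in ARLmon than in wild type (-0.50 ± 0.08, adjusted p = 3.57e-05).

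Markers of cell types moved beside these changes. In bulk tissue fewer cells of a type and less RNA per cell cannot be told apart. The summed level of 18 proximal tubule markers ranged from 28886 to 32244 CPM in ARLmon testosterone, 27417 to 35848 in ARLmon vehicle, 40916 to 46826 in wild type testosterone and 27219 to 40022 in wild type vehicle, so the wild type testosterone libraries lay above all others for the markers as they did for Hnf4a. With testosterone in wild type 6 of the 18 rose and 1 fell (median 0.08), among them Acsm2 (1.37), Slc22a6 (0.87) and Slc27a2 (0.80) higher and Slc5a2 (-0.35) lower. In this comparison 9.36% of all tested genes were called higher and 6.36% lower. Of 6 podocyte markers 5 fell, and their sum was 301 to 373 CPM with testosterone against 392 to 581 with vehicle in wild type. Sums over 12 loop, distal tubule and collecting duct markers were 4226 to 5749 CPM with testosterone and 5439 to 6944 with vehicle, with none of them called by edgeR. Of 6 endothelial markers 1 fell (Eng), and of 8 fibroblast and smooth muscle markers 2 fell (Acta2, Tagln). Between the genotypes under testosterone 5 of the 8 members and 31.1% of all tested genes were called. There all 6 podocyte markers were higher in ARLmon (median 0.79), as were 6 of 12 loop, distal tubule and collecting duct markers (0.46). So were 4 of 6 endothelial markers (0.43) and 4 of 8 fibroblast and smooth muscle markers (0.54), with none of these lists' genes lower. Of the 18 proximal tubule markers 7 were lower in ARLmon and 2 higher (median -0.16), and of 11 lymphocyte and macrophage markers 3 were higher and 1 lower (0.48). BCL6 and CISH are also made by lymphocytes and macrophages. The sum of 12 markers of those cells was 158 to 259 CPM in ARLmon testosterone, 174 to 213 in ARLmon vehicle, 148 to 224 in wild type testosterone and 155 to 181 in wild type vehicle, with 1 of 11 tested, Csf1r, higher with testosterone in wild type and none of the 12 at 0 in any library. The part of these markers in the results on the 8 genes was not tested.

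**Figure D5:**
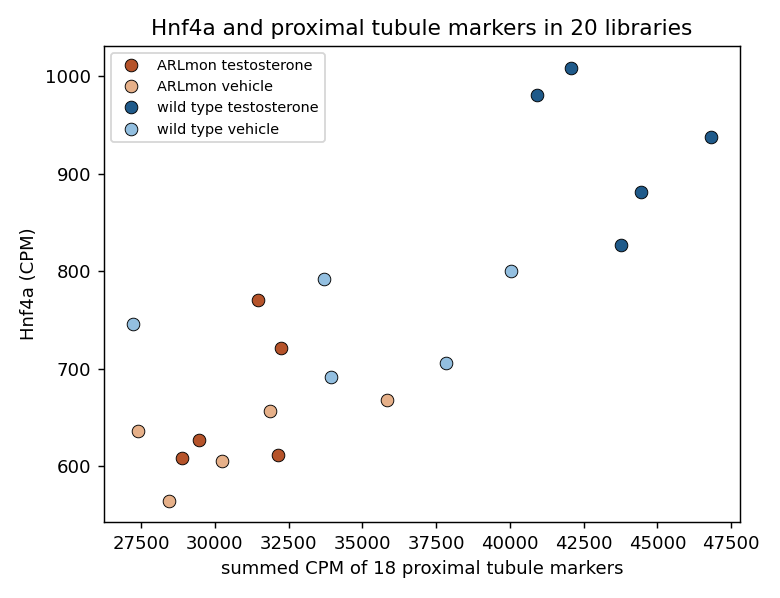
Hnf4a (CPM) against the summed CPM of 18 proximal tubule markers, 1 point per library, coloured by group; neither axis starts at 0. The 5 wild type testosterone libraries lie apart at the upper right, at 40916 CPM or more for the markers and 826 CPM or more for Hnf4a.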

How the data were processed

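Libraries were made with the Illumina TruSeq Stranded mRNA kit, and per the submitters' processing notes FastQC 0.11.7, HISAT2, SAMtools 1.5, HTSeq, DESeq2 and the mm10 build were used; settings and annotation were not given in the sources used here. The authors deposited 4 tables of raw counts per gene, each for a pair of groups, and 1 table of log2 values whose normalization was not given in the sources used here. The count tables held equal values wherever they shared a library (0 differences) and were joined over 20 libraries; 12045 values of genes absent from a pair table, in 1713 genes, were set to 0. Columns carry library codes, which name the group.

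Counts were fitted with the quasi-likelihood method of edgeR 4.0.16 (R 4.3.3) after filterByExpr and TMM, with 4 group means and 16 residual degrees of freedom. SE was taken as the log2 change divided by the root of its F statistic. Depth ran from 8342000 to 38101526 reads. No library was a copy of another (chi-square per degree of freedom at least 5.23). The script was tested on simulated data. The alternatives used DESeq2 1.42.0, limma 3.58.1 with voom, other scalings and filters, the deposited log2 values, and each library left out; leaving out GC078604 with GC078618 was added after seeing the data. The members and lists were chosen with earlier results of these data known. Every member is named; some other genes are not reported here. Of each list up to 4 genes with the smallest p in wild type are eligible, with any other called gene of the JAK-STAT lists; other list genes in the text were named after their values were seen. Positions are GENCODE M21 (GRCm38), and promoter windows are RefSeq (GRCm38.p6). Figures were drawn with matplotlib 3.10.9.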

Additional observations from a re-analysis of the deposited data

Results flagged for a closer look

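Among 32 groups of 5 libraries (8 genes in 4 groups) tested for a single library far from the rest, 3 stood out, and chance flags about 1 in 20 such groups. Cish in wild type testosterone library GC078611 was 41.1 CPM, against 12.3 to 17.7 in the other 4. Socs2 in ARLmon vehicle library GC078618 was 58.2 CPM, against 26.6 to 35.1 in the others. Stat5a in ARLmon vehicle library GC078621 was 17.5 CPM, against 20.2 to 21.1 in the others. The effect of testosterone on Bcl6 differed between the genotypes, by -1.81 on the log2 scale (ARLmon minus wild type).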

How the results depend on the processing

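No paired analysis was possible because the columns carry library codes and no replicate numbers of the labels. Of the 8 genes, the number called was 2 in place of 4 for testosterone in wild type without the filter and with the 2 groups alone, 2 in place of 0 for the genotypes with vehicle under DESeq2, and 2 in place of 1 for the difference of the testosterone effects with library size only, with DESeq2 and on the deposited log2 values. Without GC078604 and GC078618 it was 1 in place of 0 for the genotypes with vehicle (all tested genes: 894 of 15641). It was also 1 in place of 0 for ARLmon testosterone against wild type vehicle (all tested genes: 498 of 15641, from 471 of 15549). Leaving out each library in turn, it ranged from 2 to 4 for testosterone in wild type and from 0 to 2 both for the genotypes with vehicle and for the difference of the effects. Calls of Bcl6 in wild type and of all 5 members between the genotypes under testosterone were kept in every setting run.

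Signs that changed belong to values that were never called. Between the genotypes under testosterone, library size only gave 0.06 for Stat5a, 0.04 for Stat5b and 0.12 for Hnf4g, and the deposited log2 values gave 0.03, 0.02 and 0.05. The difference of the effects for Stat5b was 0.12 under both. Without GC078604 and GC078618, Hnf4g in wild type was -0.06 and Socs2 in ARLmon with testosterone 0.10. With single libraries left out, Hnf4g ranged from -0.05 to 0.39 in wild type, from -0.35 to 0.05 between the genotypes under testosterone and from -0.04 to 0.42 for the difference of the effects, Stat5b from -0.10 to 0.00 for that difference, and Socs2 from -0.30 to 0.10 in ARLmon. The cause was not tested. Depth limits Cux2 and Hnf4g, which rest on 14 to 113 and 14 to 196 reads per library.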
